A study of Caenorhabditis elegans with 8 samples.

Results

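The small heat shock proteins of Caenorhabditis elegans were followed at the RNA level across 4 genotypes of first-stage (L1) larvae. The members were chosen by name: every gene of the count table whose WormBase symbol was hsp-16.1, hsp-16.2, hsp-16.41, hsp-16.48, hsp-17, hsp-12.3, hsp-12.6, hsp-25, hsp-43 or sip-1. These 10 symbols matched 12 of 20392 genes in the table, because hsp-16.1 and hsp-16.48 each stand for 2 copies. Of these 12 genes, 8 passed the filter on low counts and were tested among 14355 genes; the other 4 had no count in any library.

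Total RNA was sequenced from 2 libraries, a and b, of each genotype. The double mutant, strain GW1468, carried a lamin transgene together with the deletion allele cec-4(ok3124), located on chromosome IV. The lamin Y59C strain, GW653, carried the same transgene alone: an integrated array, ygIs, in which the baf-1 promoter drives GFP-lmn-1 with the Y59C change, next to an unc-119(+) marker and in an unc-119(ed-3) background. The cec-4 mutant, strain GW828, carried cec-4(ok3124) without the array, and the wild-type was N2 (Bristol). All larvae hatched over 16 h in M9 buffer at room temperature and were fed OP50 bacteria for 2.5 h. They are described as animals without green fluorescence, that is without the balancer. The array encodes a GFP-lamin fusion, so how that description applies to the strains that carry it is not clear. The genotype labels list no mutation of the lmn-1 gene itself, so the array adds the Y59C form to the larva's own lamin. No strain with a wild-type lamin array was analysed here, so the array, its marker and its background cannot be told apart from the lamin change. The labels do not say whether libraries a and b came from separate cultures, so the spread between them may be technical.

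Small heat shock proteins share an alpha-crystallin domain and assemble into oligomers that hold unfolded proteins in a soluble state without using ATP, until chaperones such as HSP70 refold them. In C. elegans the hsp-16 genes lie in divergent pairs and are switched on by heat through the heat shock factor HSF-1, and several family genes are also bound by the insulin pathway factor DAF-16. Other members are made without heat, in muscle, in the germ line or in embryos. Lamin forms the meshwork under the inner nuclear membrane. CEC-4 is a chromodomain protein that holds methylated heterochromatin at the nuclear edge, and the study asked how its loss alters what the mutant lamin does, in a worm model of a human muscle laminopathy.

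In these larvae hsp-17 was higher with lamin Y59C than in wild-type, by 1.33-fold, and stood at the wild-type level in the double mutant. The short member hsp-12.3 was lower in the double mutant than in each of the other 3 genotypes, to between 0.333 and 0.408 of their levels. The heat-inducible pair hsp-16.2 and hsp-16.41 moved together over all 8 libraries and was highest with lamin Y59C and lowest in the cec-4 mutant, but no difference of the pair passed the threshold over all genes. Differences were tested with edgeR's quasi-likelihood test on the counts, with Benjamini-Hochberg adjustment over all genes tested, and a gene was called at an adjusted p under 0.05. Levels are in CPM, counts scaled to a common library size, and differences are on the log2 scale with their standard error (SE).

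**Figure D1:**
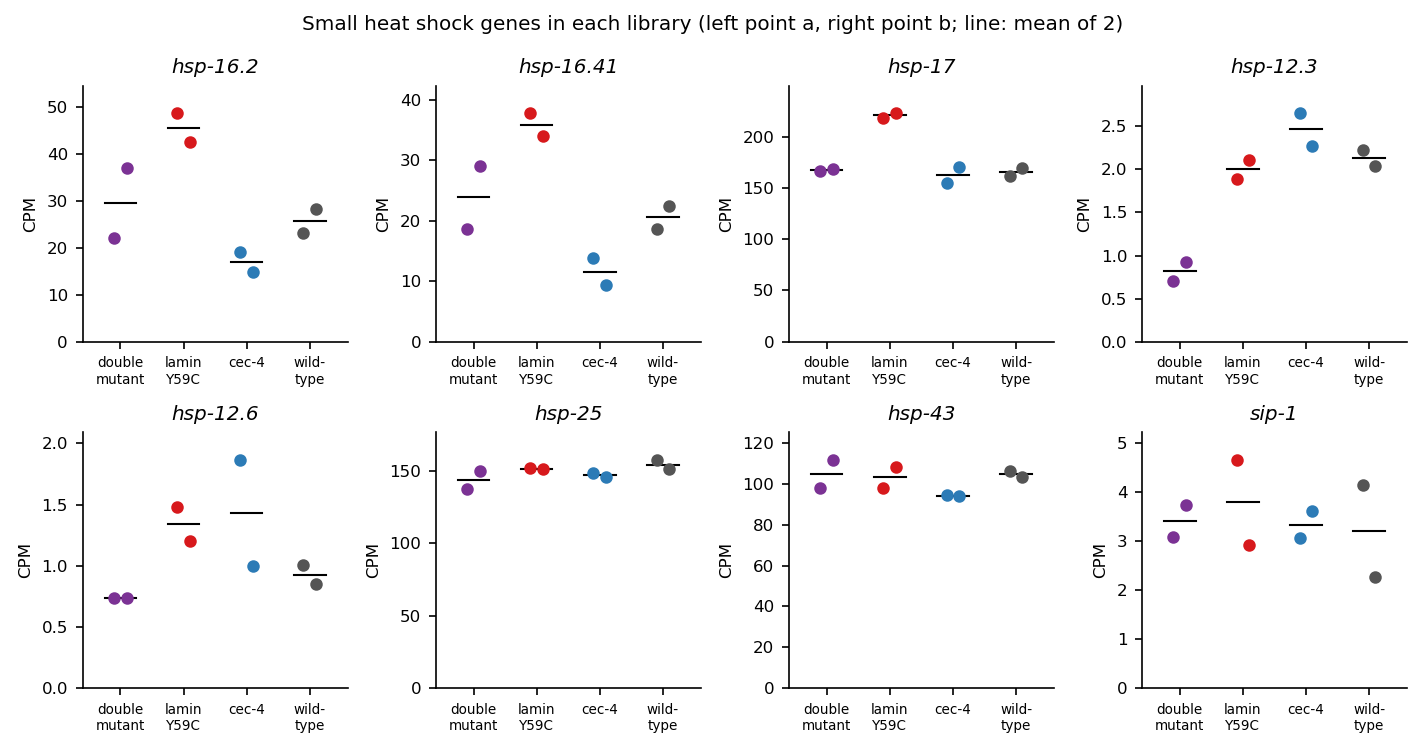
Level of each measured member in CPM (vertical axes, each from 0) in the 8 libraries, grouped as double mutant, lamin Y59C, cec-4 and wild-type from left to right. In each group the left point is library a, the right point library b, and the line is their mean. hsp-17 stood at 218.5 and 222.5 CPM with lamin Y59C and at or below 170.5 CPM in the other 6 libraries; hsp-12.3 was below 1 CPM only in the double mutant.

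The levels of the family spanned more than 2 orders of magnitude once divided by exon length. Among the members, hsp-17 had the highest mean over the 8 libraries, 319.5 CPM per kb of annotated exon, followed by hsp-25 with 131.4 and hsp-43 with 73.42. The pair hsp-16.2 and hsp-16.41 came next with 51.06 and 35.88 CPM per kb, ahead of sip-1 with 5.378, hsp-12.3 with 2.788 and hsp-12.6 with 1.441. Each of these members was above the next one in all 8 libraries, apart from hsp-43 and hsp-16.2, whose order held in 7. The order says nothing of hsp-16.1 and hsp-16.48, which had no count. Outside the 10 listed symbols, hsp-12.2, another family gene made without heat, had the highest mean of all with 398 CPM per kb. It was above hsp-17 in 7 of the 8 libraries.

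**Figure D2:**
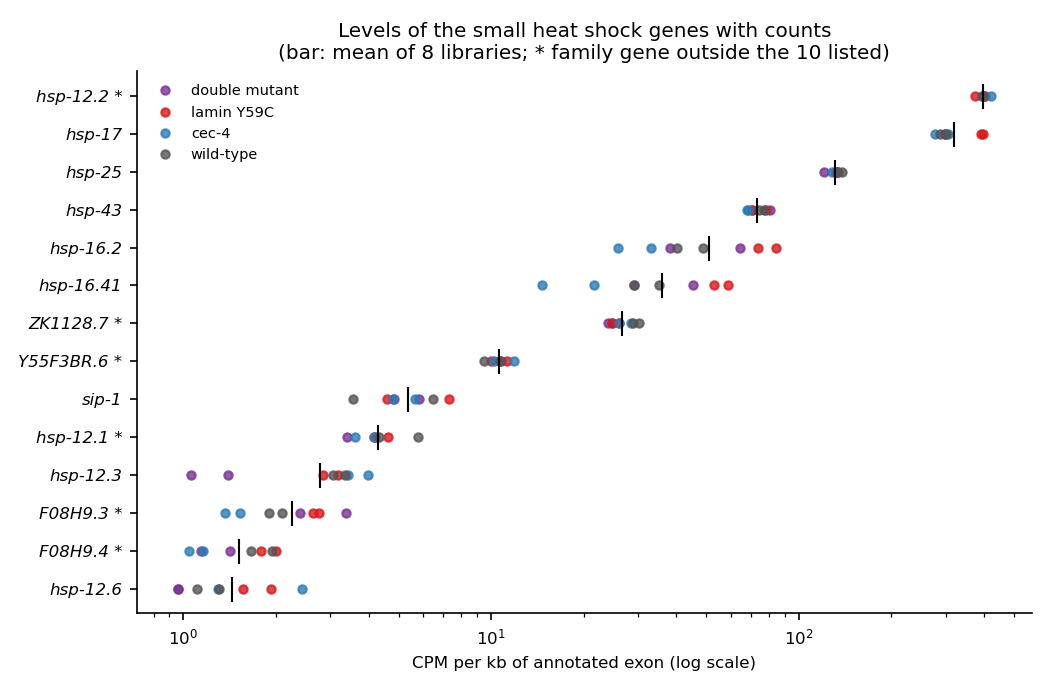
Level of 14 family genes with counts, in CPM per kb of annotated exon on a log axis. Each point is a library, coloured by genotype, the bar is the mean of the 8 libraries, and a star marks genes outside the listed members. The double mutant's points for hsp-12.3 lie apart to the left of the rest, and those of hsp-16.2 and hsp-16.41 spread most among the members above 5 CPM per kb.

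The heat-inducible members are encoded on chromosome V. The genes hsp-16.2 (WBGene00002016, positions 1804334 to 1804957, minus strand) and hsp-16.41 (WBGene00002018, positions 1805178 to 1805875, plus strand) point away from each other across 220 bp, in WBcel235. The other pairs form an inverted repeat: the 2 copies of hsp-16.1 (WBGene00002015, positions 9087293 to 9087782, and WBGene00002017, positions 9090077 to 9090604) flank the 2 copies of hsp-16.48 (WBGene00002019, positions 9088131 to 9088617, and WBGene00002020, positions 9089280 to 9089766). These 4 genes were listed at 0 counts in all 8 libraries, where 3 counts would be 0.0532 to 0.0981 CPM. Such a 0 does not show that a gene was silent. Of 195 genes in the table that share their symbol with another one, 187 (95.9%) had no count in any library, against 1175 of 18987 genes (6.188%) with a symbol of their own. The treatment of reads from near-identical copies is not given in the sources used here. The 0 counts therefore give no level for hsp-16.1 or hsp-16.48.

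The level of hsp-16.2 was 22.06 and 37.15 CPM in the double mutant, 48.72 and 42.66 CPM with lamin Y59C, 19.16 and 14.89 CPM in the cec-4 mutant, and 23.16 and 28.31 CPM in wild-type. Both lamin Y59C libraries were above all others and both cec-4 libraries below all others, while the double mutant libraries straddled wild-type and differed from each other by 1.68-fold. Against wild-type, the lamin Y59C level was 1.76-fold higher, a log2 difference of 0.82 ± 0.202 (SE), with an adjusted p of 0.123. That difference was called when the fit held the lamin Y59C and wild-type libraries alone (adjusted p = 0.0188). It was not called by DESeq2's Wald test (0.197), nor by edgeR with another scaling (0.123) or without the filter on low counts (0.0534). With 1 library left out, the log2 difference lay between 0.69 and 0.98. Why the fits differ was not tested.

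The partner hsp-16.41 followed the same order. It stood at 18.69 and 29.09 CPM in the double mutant, 37.72 and 33.92 CPM with lamin Y59C, 13.83 and 9.34 CPM in the cec-4 mutant, and 18.71 and 22.41 CPM in wild-type. As for hsp-16.2, the lamin Y59C libraries were highest and the cec-4 libraries lowest, and the double mutant overlapped wild-type. The log2 difference between lamin Y59C and wild-type was 0.79 ± 0.198 (SE), adjusted p = 0.127, and again passed in the fit of those 2 groups alone (adjusted p = 0.0188). Again it was not called by DESeq2 (0.228), nor by edgeR with another scaling (0.128) or without the filter (0.0568).

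Between the double mutant and the cec-4 mutant, that is with and without the array in larvae that lack cec-4, hsp-16.41 was 2.08-fold higher in the double mutant. The log2 difference was 1.05 ± 0.215 (SE) with an adjusted p of 0.0599, so it missed the threshold. DESeq2's Wald test gave an adjusted p of 0.041, and edgeR gave 0.0174 without the filter on low counts. Both of these are under the threshold. The difference was not called by edgeR with another scaling of the libraries (0.0593) or with the compared genotypes alone (0.0778). With 1 library left out, the log2 difference lay between 0.70 and 1.35. For hsp-16.2 the same difference was 0.80 ± 0.215 (SE), adjusted p = 0.136, with 0.223 by DESeq2 and 0.0661 by edgeR without the filter. With 1 library left out it lay between 0.38 and 1.13. Neither gene was called between the cec-4 mutant and wild-type, where hsp-16.41 differed by -0.85 ± 0.214 (SE) and hsp-16.2 by -0.61 ± 0.213 (SE), both with an adjusted p of 0.897. Set against lamin Y59C, the double mutant had a log2 difference of -0.63 for hsp-16.2 (adjusted p = 0.216) and -0.59 for hsp-16.41 (adjusted p = 0.234). The interaction, which is the difference made by the array without cec-4 minus the difference it made with cec-4, was -0.016 for hsp-16.2, with a 95% interval of -0.67 to 0.64. For hsp-16.41 it was 0.26, with an interval of -0.39 to 0.91.

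The 2 genes of the pair varied together. Their log2 levels had a Pearson r of 0.986 over the 8 libraries, which share genotypes in pairs and an adjacent locus; this is a description with no test. The number of hsp-16.2 counts per hsp-16.41 count was 1.18 and 1.28 in the double mutant, 1.29 and 1.26 in lamin Y59C, 1.39 and 1.59 in the cec-4 mutant, and 1.24 and 1.26 in wild-type. Both cec-4 libraries had the highest ratios, where hsp-16.2 made up 58.1% (95% exact binomial interval 55 to 61.1) and 61.4% (58.2 to 64.6) of the pair's counts. The 6 other libraries lay between 54.1% and 56.4%. These intervals cover counting error only.

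**Figure D3:**
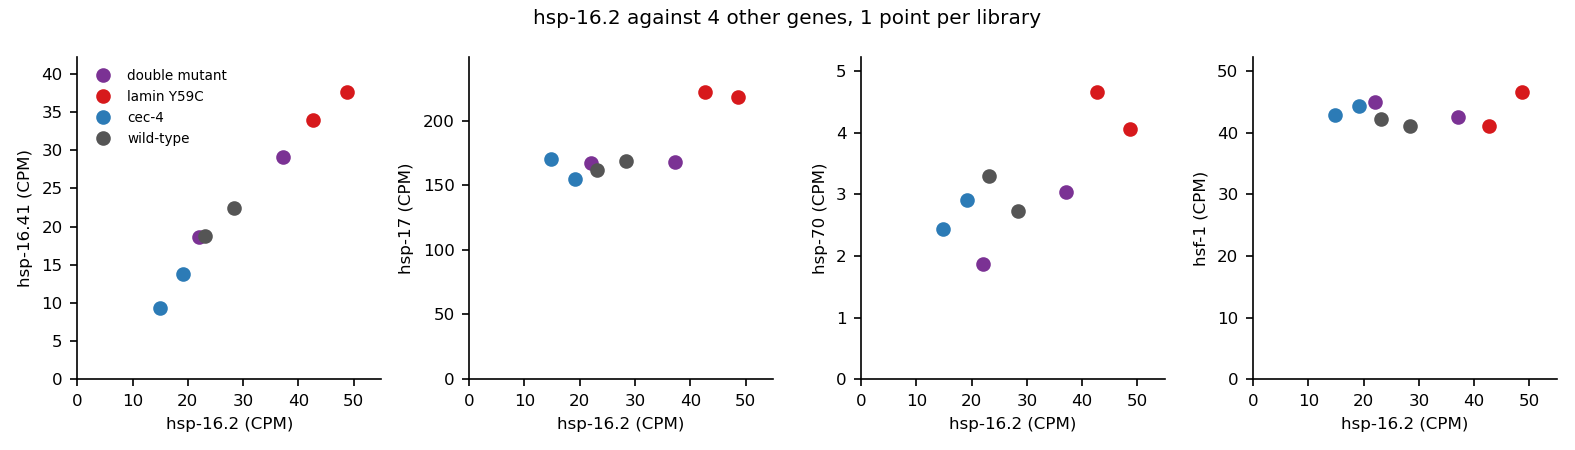
Level of hsp-16.2 (horizontal axes, CPM) against hsp-16.41, hsp-17, hsp-70 and hsf-1 (vertical axes, CPM), 1 point per library, coloured by genotype. The points for hsp-16.41 fall along a line, those for hsp-17 are raised in the 2 lamin Y59C libraries alone, and hsf-1 lies between 41.07 and 46.73 CPM at every level of hsp-16.2.

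The protein HSP-17 is known from C. elegans work to promote the aggregation of proteins rather than to keep them soluble. Its gene hsp-17 (WBGene00002021) lies on chromosome V, positions 8384799 to 8385929, minus strand, with 560 bp of exon. Its level was 166.8 and 167.9 CPM in the double mutant, 218.5 and 222.5 CPM with lamin Y59C, 154.7 and 170.5 CPM in the cec-4 mutant, and 161.5 and 169 CPM in wild-type. The lamin Y59C libraries stood above all others, and the other 3 genotypes overlapped.

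Expression of hsp-17 rose in lamin Y59C against wild-type, with a log2 difference of 0.42 ± 0.0605 (SE) and an adjusted p of 0.0234; DESeq2 gave 1.85e-05. Against lamin Y59C it fell in the double mutant, with a log2 difference of -0.40 ± 0.0607 (SE), adjusted p = 0.0244, and 4.3e-05 by DESeq2. These comparisons share the lamin Y59C libraries, so they are not independent of each other. The call against wild-type was lost when any 1 of the wild-type or lamin Y59C libraries was left out (adjusted p up to 0.221), and the call against lamin Y59C when any 1 of the double mutant or lamin Y59C libraries was (up to 0.165). The sizes moved little, between 0.39 and 0.45 for the rise and between -0.41 and -0.39 for the fall.

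The double mutant differed from wild-type by a log2 value of 0.018, with a 95% interval of -0.12 to 0.15, and from the cec-4 mutant by 0.041, with an interval of -0.095 to 0.18. The cec-4 mutant itself differed from wild-type by -0.023, with an interval of -0.16 to 0.11. The interaction was -0.38 ± 0.0857 (SE), with an unadjusted p of 0.00136 and an adjusted p of 0.23, so the difference between both array effects was not called. On the other strand, the gene F52E1.14 shares 73 bp of exon with hsp-17. It had 67.02 and 62.3 CPM in the double mutant, 80.96 and 77.75 CPM with lamin Y59C, 60.72 and 70.2 CPM in the cec-4 mutant, and 64.22 and 68.72 CPM in wild-type. It was thus also highest with lamin Y59C, by a log2 difference of 0.25 from wild-type (adjusted p = 0.173). The strand setting of the counts is not given in the sources used here. Whether reads over the shared stretch were separated by strand is therefore not known, and their part in the hsp-17 result was not tested.

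The members hsp-12.3 and hsp-12.6 encode the shortest proteins of the family, little more than the alpha-crystallin domain. In C. elegans work they lacked chaperone activity in solution, and RNAi of hsp-12.6 shortens the long life of daf-2 mutants. Their genes follow each other on the minus strand of chromosome IV, with hsp-12.3 (WBGene00002012) at positions 9444791 to 9445507 and hsp-12.6 (WBGene00002013) at positions 9446229 to 9447228, separated by 721 bp. The deletion in cec-4 lies on the same chromosome, in the cec-4 mutant as in the double mutant.

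Expression of hsp-12.3 rested on 23 and 29 counts in the double mutant, 60 and 67 in lamin Y59C, 81 and 87 in the cec-4 mutant, and 71 and 115 in wild-type. In CPM this was 0.7048 and 0.928 in the double mutant, 1.891 and 2.114 in lamin Y59C, 2.649 and 2.276 in the cec-4 mutant, and 2.228 and 2.041 in wild-type. Both double mutant libraries were below the other 6, and lamin Y59C overlapped wild-type.

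In the double mutant hsp-12.3 fell against the cec-4 mutant by a log2 difference of -1.59 ± 0.213 (SE), adjusted p = 0.0117. Against wild-type the difference was -1.38 ± 0.212 (SE), adjusted p = 0.013, and against lamin Y59C it was -1.29 ± 0.221 (SE), adjusted p = 0.0326. These 3 comparisons share the double mutant libraries. DESeq2's adjusted p was 0.00136 against the cec-4 mutant and 0.0284 against lamin Y59C; DESeq2 gave no adjusted p against wild-type. Left out in turn, either double mutant library ended all 3 calls. The call against wild-type also ended without library a of wild-type (adjusted p up to 0.12), and the one against lamin Y59C without any 1 library of wild-type or lamin Y59C (up to 0.197). The highest adjusted p against the cec-4 mutant was 0.0985.

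Neither mutation alone gave a call for hsp-12.3. Lamin Y59C differed from wild-type by -0.083 on the log2 scale, with a 95% interval of -0.49 to 0.32, and the cec-4 mutant by 0.21, with an interval of -0.18 to 0.60. The interaction was -1.50 ± 0.283 (SE), with an unadjusted p of 0.000341, the 35th smallest of all genes tested, and an adjusted p of 0.134.

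The neighbour hsp-12.6 had 0.7355 and 0.736 CPM in the double mutant, 1.481 and 1.199 CPM with lamin Y59C, 1.864 and 0.9942 CPM in the cec-4 mutant, and 1.004 and 0.8519 CPM in wild-type. Here too both double mutant libraries were lowest, but the cec-4 libraries lay 1 above and 1 within the range of the rest. No difference was called. The log2 difference of the double mutant was -0.86 ± 0.33 (SE) from lamin Y59C (adjusted p = 0.293), -0.92 ± 0.324 (SE) from the cec-4 mutant (adjusted p = 0.248) and -0.31 from wild-type (adjusted p = 0.679). The interaction was -1.48 ± 0.444 (SE), adjusted p = 0.343. Over the 8 libraries the log2 levels of hsp-12.3 and hsp-12.6 had a Pearson r of 0.706, as a description.

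**Figure D4:**
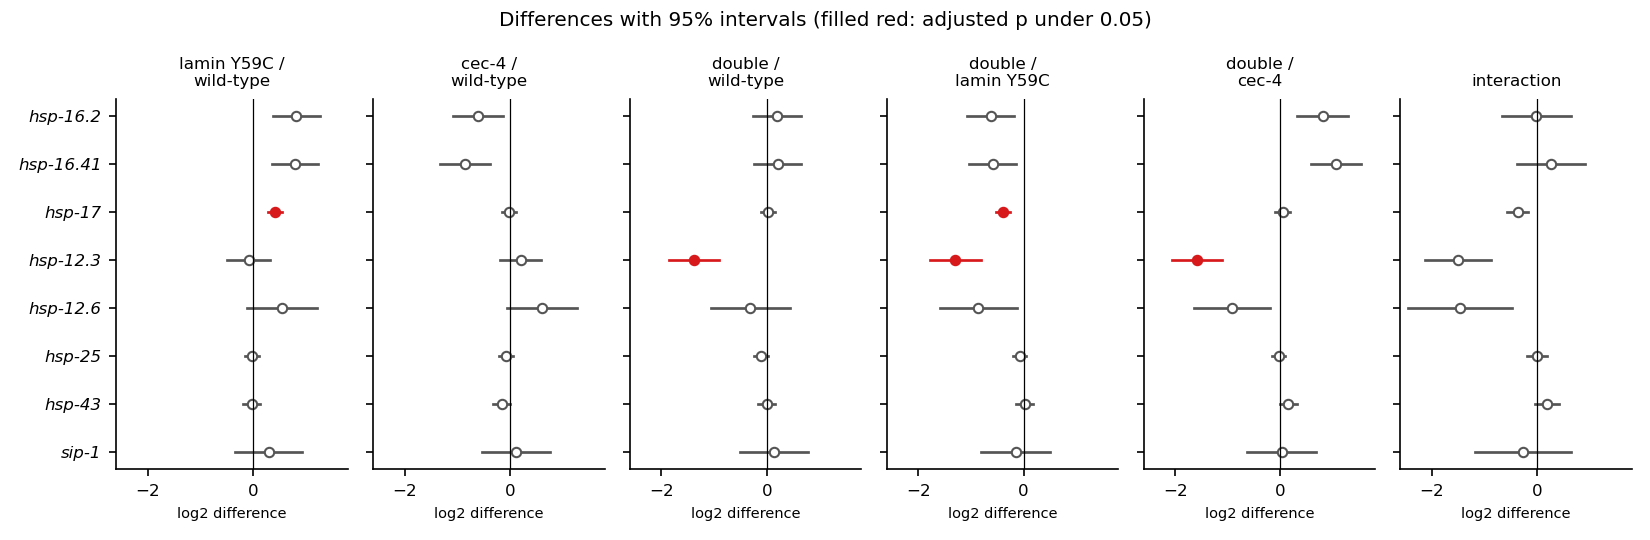
Log2 differences of the 8 measured members (horizontal axes) in the 6 comparisons, with the named first genotype over the second. Points are edgeR estimates, lines are 95% intervals, and filled red points have an adjusted p under 0.05. Filled points occur for hsp-17 in 2 panels and for hsp-12.3 in 3, and the intervals of hsp-25 and hsp-43 are narrow around 0.

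The remaining members are made without heat. In C. elegans, HSP-25 is found at the dense bodies and M-lines that anchor muscle filaments. Its gene (WBGene00002023, chromosome X, positions 6034463 to 6039644, minus strand) had 137.1 and 149.8 CPM in the double mutant, 151.8 and 150.7 CPM with lamin Y59C, 148.4 and 145.5 CPM in the cec-4 mutant, and 157.3 and 150.9 CPM in wild-type. The highest library was at most 1.15 times the lowest. Lamin Y59C differed from wild-type by a log2 value of -0.026, with a 95% interval of -0.16 to 0.10, and the double mutant by -0.10, with an interval of -0.23 to 0.028. The gene ipp-5 overlaps hsp-25 on the other strand by 53 bp of exon and was not called in any comparison.

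The gene hsp-43 (WBGene00002024, chromosome X, positions 6233151 to 6235543, minus strand) encodes a protein known from the uterus, the spermathecal valve and the vulva of adults. It had 97.88 and 111.6 CPM in the double mutant, 97.91 and 108.2 CPM with lamin Y59C, 94.47 and 93.88 CPM in the cec-4 mutant, and 106.4 and 103.2 CPM in wild-type. Both cec-4 libraries were lowest, with a log2 difference of -0.15 from wild-type and an interval of -0.32 to 0.0078; the other 3 genotypes overlapped. In the other comparisons of genotypes its log2 difference lay between -0.023 and 0.15.

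SIP-1 is known as a small heat shock protein of oocytes and embryos that works best at acid pH. Its gene (WBGene00004798, chromosome III, positions 10506106 to 10506801, minus strand) had 3.095 and 3.744 CPM in the double mutant, 4.664 and 2.934 CPM with lamin Y59C, 3.074 and 3.611 CPM in the cec-4 mutant, and 4.143 and 2.272 CPM in wild-type. All genotypes overlapped, and the libraries of wild-type differed from each other by more than any pair of group means. Its intervals were correspondingly wide: lamin Y59C against wild-type gave 0.30, from -0.34 to 0.94.

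Read across comparisons, few members were called. Against wild-type, lamin Y59C had 1 of 8 tested members called, hsp-17, which was higher, where 0.509% of all genes tested were called in either direction. The cec-4 mutant against wild-type had 0 members called, where 0.0209% of all genes were; by unadjusted p under 0.05 it had 2 lower (2.33% of all genes), and DESeq2 called 0. The double mutant against wild-type had 1 called, hsp-12.3, which was lower, where 2.21% of all genes were called. Against lamin Y59C the double mutant had 2 called, hsp-17 and hsp-12.3, both lower, beside 0.676% of all genes. Against the cec-4 mutant it had 1 called, hsp-12.3, which was lower, beside 0.773%. The interaction had 0 called, beside 0.0348%; by unadjusted p under 0.05 it had 3 below 0 (5.52% of all genes), and DESeq2 called 0.

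The direction of all 8 tested members, called or not, was read from whether the libraries of 2 genotypes overlapped. Between the double mutant and lamin Y59C, 6 of the 8 members had both double mutant libraries lower and 0 had both higher, where 21.9% and 22.5% of all genes did. Between lamin Y59C and wild-type, 4 had both lamin Y59C libraries higher and 0 lower, where 25% and 23.7% of all genes did. The cec-4 mutant had 4 lower and 1 higher than wild-type (16.3% and 18% of all genes), and the double mutant had 3 lower and 0 higher than wild-type (24.8% and 25.7%). Against the cec-4 mutant, the double mutant had 3 higher and 2 lower (20.3% and 21.6%). The median log2 difference of the 8 members was -0.492 for the double mutant against lamin Y59C (0.00282 over all genes tested) and 0.357 for lamin Y59C against wild-type (0.00424 over all genes tested). For the double mutant against wild-type it was 0.00866, with 0.00502 over all genes. These comparisons share libraries, and the members were chosen with results known, so the counts and medians are descriptions.

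The 6 further family genes of the table were examined as values. In no comparison was any of them called by edgeR. By unadjusted p under 0.05 up to 2 of the 6 differed in a comparison, where 4.88% to 17.4% of all genes did. DESeq2 called 1, F08H9.3, higher in the double mutant than in the cec-4 mutant, beside 95 of 14355 genes called higher. The gene F08H9.3, which encodes a family member, came nearest to the threshold: it had 2.666 and 3.744 CPM in the double mutant and 1.7 and 1.517 CPM in the cec-4 mutant, a log2 difference of 0.996 ± 0.199 (SE), adjusted p = 0.0572 (0.0481 by DESeq2, and 0.0249 by edgeR without the filter on low counts). The groups did not overlap. Of its 1111 bp of exon, 151 bp overlap a small nuclear RNA on the same strand, where reads cannot be told apart. A noncoding RNA on the other strand overlaps 153 bp, and whether reads there were separated by strand is not known. The level of ZK1128.7 differed by -0.28 ± 0.0722 (SE) between the double mutant and wild-type (adjusted p = 0.0835). The family gene with the highest mean level per kb, hsp-12.2, lay between 194 and 218.9 CPM in all libraries. The smallest p-values of the other 3 were those of hsp-12.1 in the double mutant against wild-type (log2 difference -0.38, adjusted p = 0.36), and of F08H9.4 (-0.69) and Y55F3BR.6 (0.14) between the cec-4 mutant and wild-type, both with an adjusted p of 0.897.

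Genes that work with the small heat shock proteins were taken from lists by function. Of 14 tested cytosolic chaperones of the heat shock response, 0 were called in any comparison by edgeR or DESeq2; by unadjusted p under 0.05 between 1 and 7 differed. The most were in the double mutant against the cec-4 mutant, where 7 were higher and 0 lower, beside 5.98% and 7.18% of all genes. The inducible HSP70 gene hsp-70 had 1.869 and 3.04 CPM in the double mutant, 4.065 and 4.67 CPM with lamin Y59C, 2.91 and 2.433 CPM in the cec-4 mutant, and 3.296 and 2.733 CPM in wild-type. Its lamin Y59C libraries were highest, like those of hsp-16.2, and its log2 difference between the double mutant and lamin Y59C was -0.83 ± 0.221 (SE), adjusted p = 0.142. The co-chaperone gene dnj-12 differed in the other direction, by 0.22 ± 0.0618 (SE), adjusted p = 0.172. With hsp-16.2, the log2 levels of the 14 chaperone genes had a Pearson r between 0.0131 and 0.814 over the 8 libraries, with 0.721 for hsp-70, as a description.

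The heat shock factor gene hsf-1 had 45.02 and 42.62 CPM in the double mutant, 46.73 and 41.15 CPM with lamin Y59C, 44.34 and 42.96 CPM in the cec-4 mutant, and 42.31 and 41.07 CPM in wild-type. Lamin Y59C and wild-type overlapped, with a log2 difference of 0.077 (adjusted p = 0.674). Of the 4 tested genes for the factor and its regulators, 0 were called in any comparison by either tool, and 0 had an unadjusted p under 0.05. The regulator gene ddl-1 had its smallest p between the cec-4 mutant and wild-type, with a log2 difference of -0.17 (adjusted p = 0.897).

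In the insulin pathway list, 0 of 9 genes were called in any comparison by edgeR; by unadjusted p under 0.05, 1 was higher and 4 were lower in lamin Y59C than in wild-type, beside 6.99% and 7.59% of all genes. The kinase gene akt-1 differed by -0.45 ± 0.12 (SE) there (adjusted p = 0.143, or 0.0109 by DESeq2), and daf-16, which encodes the factor that the pathway restrains, by 0.29 ± 0.079 (SE) (adjusted p = 0.149, or 0.0489 by DESeq2). Of 10 tested DAF-16 targets outside the family, 1 was called by edgeR: mtl-1, which encodes a metallothionein. It had 47.59 and 45.41 CPM in the double mutant, 61.99 and 50.99 CPM with lamin Y59C, 74.33 and 72.63 CPM in the cec-4 mutant, and 90.46 and 74.48 CPM in wild-type. It fell in the double mutant against wild-type by -0.82 ± 0.104 (SE), adjusted p = 0.00497, where 1.44% of all genes were called lower. Against the cec-4 mutant it fell by -0.66 ± 0.105 (SE), adjusted p = 0.0223, where 0.509% were called lower. The first call was lost without either double mutant library (adjusted p up to 0.0592), and the second without any 1 library of the double mutant or the cec-4 mutant (up to 0.209). Both of its double mutant libraries were below the other 6. Unlike for hsp-12.3, its lamin Y59C libraries did not overlap wild-type either: the log2 difference was -0.54 ± 0.103 (SE), adjusted p = 0.0571 (0.000262 by DESeq2).

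The other DAF-16 targets were not called by edgeR. In lamin Y59C against wild-type, 9 of the 10 had a log2 difference below 0, where 7373 of all 14355 genes tested were above 0. Their median was -0.313, beside 0.00424 over all genes tested. By unadjusted p under 0.05, 5 were lower and 1 higher, beside 7.59% and 6.99% of all genes. The higher one was sod-3, a superoxide dismutase gene chosen for mention after its values were seen. It had 1.655 and 2.272 CPM in the double mutant, 4.885 and 2.745 CPM with lamin Y59C, 1.668 and 2.486 CPM in the cec-4 mutant, and 1.915 and 1.863 CPM in wild-type. Its log2 difference between lamin Y59C and wild-type was 1.02 ± 0.281 (SE), adjusted p = 0.153. DESeq2 called 1 further target, mtl-2, another metallothionein gene, higher in the double mutant than in lamin Y59C (log2 difference 0.55, adjusted p = 5.42e-05, against 0.0538 by edgeR). In that comparison DESeq2 called 91 of 14355 genes higher. For the interaction, DESeq2 called 1 of the 10 targets above 0, beside 35 of 14355 genes. By edgeR's unadjusted p under 0.05, 4 targets had an interaction above 0 and 1 below 0, beside 4.54% and 5.52% of all genes.

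Chaperones of other compartments had no call by edgeR or DESeq2: 0 of 9 mitochondrial and 0 of 12 endoplasmic reticulum genes in any comparison. By unadjusted p under 0.05, 4 mitochondrial and 2 endoplasmic reticulum genes were higher and 0 of either lower in the double mutant than in the cec-4 mutant, beside 5.98% and 7.18% of all genes. No other comparison had more in either list. By libraries that did not overlap, 9 of the 12 endoplasmic reticulum genes were lower and 0 higher in the cec-4 mutant than in wild-type. Over all genes this held for 16.3% and 18%. In lamin Y59C, 7 of them were lower and 0 higher than in wild-type (23.7% and 25% of all genes). In the double mutant, 3 were lower and 3 higher than in wild-type (24.8% and 25.7%). The ER chaperone gene hsp-4, an HSP70 of the unfolded protein response, came nearest for its list with a log2 difference of -0.25 ± 0.0787 (SE) between the double mutant and lamin Y59C (adjusted p = 0.203). For the mitochondrial list it was dve-1, a factor of the mitochondrial stress response, with -0.25 ± 0.0594 (SE) between lamin Y59C and wild-type (adjusted p = 0.105).

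**Figure D5:**
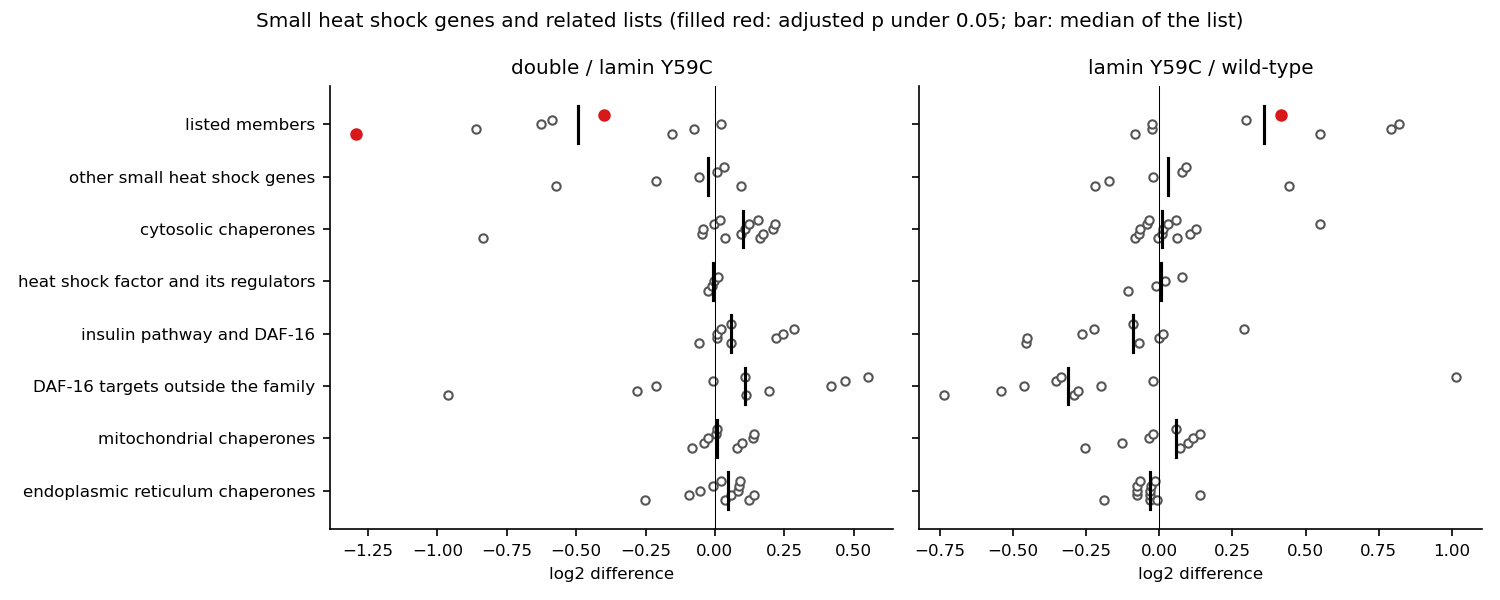
Log2 differences of single genes in the listed members and 7 other lists, for the double mutant against lamin Y59C (left) and lamin Y59C against wild-type (right). Points are genes, bars are list medians, and filled red points have an adjusted p under 0.05. The members have a median of -0.492 in the left panel and 0.357 in the right, and they hold the only filled points in both.

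Genes whose pattern was most like that of the 2 members with the smallest p-values were found by Pearson correlation of log2 CPM over the 8 libraries, among genes that averaged 5 CPM or more. For hsp-12.3 these were sqv-6 (r = 0.977), rips-1 (0.975), T23B12.11 (0.969) and ceh-34 (0.967), all on chromosome V. Of these, rips-1 was called: it had 4.535 and 5.472 CPM in the double mutant, 9.139 and 9.498 CPM with lamin Y59C, 10.95 and 10.2 CPM in the cec-4 mutant, and 12.46 and 9.708 CPM in wild-type, with log2 differences of -1.14 from wild-type (adjusted p = 0.00497), -0.90 from lamin Y59C (0.027) and -1.08 from the cec-4 mutant (0.0117). The other 3 had the order of hsp-12.3 at a much smaller size, with no log2 difference beyond -0.20 for the double mutant.

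For hsp-17 the most alike were tlp-1 (r = 0.963), piit-1 (0.962), oac-51 (0.953) and WBGene00021674 (0.953), a gene with no symbol in the tables used. The zinc finger gene tlp-1 had 33.98 and 30.88 CPM in the double mutant, 81.12 and 79.89 CPM with lamin Y59C, 32.01 and 29.72 CPM in the cec-4 mutant, and 29.82 and 30.1 CPM in wild-type. Like hsp-17 it was raised in lamin Y59C alone, but by a log2 difference of 1.43 from wild-type (adjusted p = 8.45e-06), and its interaction was called (-1.35, adjusted p = 0.000643). These genes were picked for their likeness, so the correlations are descriptions over 8 libraries that hold 4 genotypes.

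The libraries held 30924676 to 57069281 counts, with library b of wild-type the deepest. The targeted genes followed the labels: cec-4 had 4.352 and 4.608 CPM in the double mutant, 12.32 and 12.31 CPM with lamin Y59C, 5.036 and 4.762 CPM in the cec-4 mutant, and 14.53 and 12.65 CPM in wild-type, and unc-119 was at 41.5 to 43.33 CPM with the array and 22.37 to 24.3 CPM without it. The counts do not separate the Y59C form from normal lamin; lmn-1 had 488.4 to 523.4 CPM with the array and 428.6 to 472.6 CPM without it. In whole larvae, fewer cells of a type and less RNA per cell cannot be told apart. The 16 body wall muscle genes summed to 16130 to 17000 CPM in the double mutant, 16710 to 17440 in lamin Y59C, 16530 to 17360 in the cec-4 mutant and 17290 to 17740 in wild-type, with 1 call by edgeR, unc-27, lower in the double mutant than in wild-type (-0.27, adjusted p = 0.049). That call was lost with the compared genotypes alone (0.0548) and without any 1 library of the double mutant, lamin Y59C or wild-type (up to 0.285). In that comparison edgeR called 1.44% of all genes lower. By unadjusted p under 0.05, 6 of the 16 were lower and 0 higher (9.14% and 8.3% of all genes). DESeq2 called 3 lower there, beside 293 of 14355 genes. It also called 1 lower in lamin Y59C than in wild-type and 1 lower in the double mutant than in lamin Y59C. In each of these it called 145 of 14355 genes lower. Of the 16 genes of adult intestine and eggs, vit-5 was at 0 everywhere, and all 16 summed to 22.13 to 23.94 CPM in the double mutant, 20.79 to 22.19 in lamin Y59C, 19.86 to 22.2 in the cec-4 mutant and 18.36 to 19.88 in wild-type. Lists of pharyngeal muscle, intestine, neuron and germ line genes had 0 calls by edgeR or DESeq2. In lamin Y59C, 6 of 7 neuron genes had both libraries below wild-type and 0 above, beside 23.7% and 25% of all genes. In the double mutant, 6 of 8 intestine genes had both below wild-type and 0 above, beside 24.8% and 25.7%. The part of these tissue and stage genes in the member results was not tested.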

How the data were processed

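Total RNA libraries of 8 samples (4 genotypes, 2 libraries each) were prepared as stranded libraries and sequenced in single 50 bp reads, per the labels. The deposited table held raw counts per WormBase gene. Bowtie, edgeR 3.24.0 and the build ce10 are named in the submitters' processing notes. Not given in the sources used here were the counting tool, the annotation and the strand setting. The deposited normalized table was not used. Symbols were matched by gene ID for 19182 of 20392 genes, and WBcel235 positions for 19870; no coordinate was converted between builds.

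Differences were tested with edgeR 4.0.16 in R 4.3.3: filterByExpr removed 6037 genes (0.0278% of counts), TMM factors scaled the libraries, and a two-sided quasi-likelihood test with 1 mean per genotype was fitted to all 8 libraries (4 residual and 6.03 prior degrees of freedom), with Benjamini-Hochberg adjustment over 14355 genes. The SE is the log2 difference divided by the square root of F. Libraries held 30924676 to 57069281 counts, and 1 count is 0.0177 to 0.0327 CPM after TMM scaling. With 2 libraries a genotype, a rank comparison of 2 groups could not reach the threshold, and p-values rest on the spread shared between groups. The script was tested on simulated data. DESeq2 1.42.0, other scaling, no filter, the library letter as a block, only the compared genotypes, and leaving out each library were tried as alternatives.

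Named genes were all 10 members, the other family genes, called members of each list, and the 4 genes most alike to each of 2 members. Where a list had none called, its 2 genes of smallest p in any comparison were picked, but not all of these are printed. The lists of pharyngeal muscle, intestine, neurons and germ line are given as counts only. The members, lists and rules were chosen with earlier results of these data known. Libraries of a genotype differed by more than sampling noise (chi-square per degree of freedom 6.56 to 12.4), so none was the same library sequenced again. Whether they came from separate RNA or cultures cannot be read from these values.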

Additional observations from a re-analysis of the deposited data

How the results depend on the processing

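Counts of called genes moved more than the member values. Over all genes, lamin Y59C against wild-type gave 73 calls, 234 by DESeq2, 159 without the filter, 124 with the compared genotypes alone, and 8 to 178 with 1 library left out. The cec-4 mutant against wild-type gave 3, 11 by DESeq2 and 3 to 9 with 1 library left out. The double mutant gave 317 against wild-type (37 to 440 with 1 library left out). Against lamin Y59C it gave 97, 236 by DESeq2, 182 without the filter, 156 with the compared genotypes alone, and 6 to 166. Against the cec-4 mutant it gave 111, 251 by DESeq2, 212 without the filter, and 11 to 140. The interaction gave 5, 74 by DESeq2, 34 without the filter, and 1 to 35. Among the members, lamin Y59C against wild-type gave 1 call, 3 with the compared genotypes alone and 0 to 2 with 1 library left out; the double mutant gave 1 against wild-type (0 by DESeq2, which gave hsp-12.3 no adjusted p, and 0 to 1), 2 against lamin Y59C (0 to 2), and 1 against the cec-4 mutant (2 by DESeq2, 2 without the filter, and 0 to 2). The cause of these moves was not tested, except that leaving out a library leaves fewer samples. Where a genotype is left with 1 library, that library is assumed to vary like the others.

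The library letters showed no clear pairing of the samples: deviations of libraries with the same letter had correlations of -0.221 to 0.195 between genotypes. The highest was that of lamin Y59C with the double mutant. Such values cannot show whether libraries of different genotypes were prepared together. With the letter as a replicate block, lamin Y59C against wild-type gave 27 calls, the double mutant 146 against wild-type, 28 against lamin Y59C and 58 against the cec-4 mutant, and 0 members were called in the double mutant against lamin Y59C (hsp-17 adjusted p = 0.0509, hsp-12.3 0.0747). The call of unc-27 was also lost (0.0964).

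Of 400 log2 differences of single genes under the other alternatives, 0 changed sign. Of 664 with 1 library left out, 34 did, all for differences that were not called. With 1 library left out, lamin Y59C against wild-type ranged from -0.056 to 0.0054 for hsp-25, -0.097 to 0.047 for hsp-43, -0.12 to 0.74 for sip-1 and -0.018 to 0.17 for hsf-1. The cec-4 mutant against wild-type ranged from -0.099 to 0.045 for hsp-17 and -0.30 to 0.56 for sip-1. The double mutant against wild-type ranged from -0.23 to 0.52 for hsp-16.2, -0.15 to 0.49 for hsp-16.41, -0.018 to 0.052 for hsp-17, -0.099 to 0.091 for hsp-43 and -0.28 to 0.58 for sip-1; without library b of the double mutant both hsp-16 genes were below 0. The double mutant against lamin Y59C ranged from -0.078 to 0.11 for hsp-43 and -0.45 to 0.22 for sip-1, and against the cec-4 mutant from -0.027 to 0.11 for hsp-17, -0.099 to 0.028 for hsp-25 and -0.12 to 0.16 for sip-1. The interaction ranged from -0.44 to 0.31 for hsp-16.2, -0.092 to 0.56 for hsp-16.41, -0.076 to 0.054 for hsp-25 and -0.72 to 0.15 for sip-1.

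Genes of few counts are limited by depth: hsp-12.3 rests on 23 to 115 counts a library. With 2 libraries a genotype, calls of members near the threshold depend on single libraries.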
